A study of Mus musculus with 2 samples.

Results

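The regions described here are 431 peaks of H3K27me3, trimethylation of histone H3 at lysine 27, that lay at ends of long non-coding RNA (lncRNA) genes and away from the ends of protein-coding genes. They were chosen from a list of 6018 peaks in mouse sciatic nerve as peaks at most 5 kb wide, within 2 kb of either annotated end of a lncRNA gene and more than 5 kb from each protein-coding gene end. They made up 7.16% of the peaks, 5.84% of the bases in peaks and 5.47% of the reads in peaks. Because peak calls and their widths chose the regions, the presence of the mark at them is not a finding. The nerve came from male C57/BL6 mice of 8 weeks with no treatment named, and gave 1 ChIP library, made with a Millipore antibody to H3K27me3, and 1 input library. The input was chromatin kept aside from the same preparation, and no input values were analysed here. The number of mice is not stated in these sources, RNA was not measured, and the nerve was not described as sorted, so the peaks are not assigned to a cell type.

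H3K27me3 is laid down by the Polycomb repressive complex PRC2 and is known from silent genes that control development. In mammals PRC2 is often found at unmethylated CpG islands, stretches of DNA rich in the dinucleotide CpG. A lncRNA is a transcript without a long open reading frame. Many lncRNA genes stand beside genes for developmental transcription factors, and some host microRNAs, short RNAs that pair with messenger RNAs through the seed at bases 2 to 8.

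Each peak has a score from the authors' processing, and these scores were whole multiples of 2.5735 to within 0.05 for 100% of the peaks. A score divided by this step is called a number of reads here. The list held 185225 reads in all, and its smallest peaks held 10 reads, for which the exact 95% Poisson interval is 4.795 to 18.39. With 1 library there was no replicate and no test, and each interval below covers counting error only. Peaks that lie near each other are not independent, so intervals for shares of peaks are too narrow. As a check of the tissue label, 4 of 10 Schwann cell markers (among them Sox10 and Egr2) and 2 of the 16 markers of other cell types had a peak at one of their ends, and a peak list gives no level of expression. Of the 24 peaks in the whole list with more than 52.42 reads per kb, 1 was at an isolated lncRNA end.

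The sequences of 5 promoters that lay wholly inside one of the 431 peaks are shown first, because promoters under a peak and under none are compared by their CpG number below. Each runs from 250 bases before to 50 after a RefSeq transcript start on GRCm38.p6, the build also called mm10, read 5′ to 3′ on the gene's strand, with each CG in capitals. Gm16551 had the most reads, Gm11608 had 48 CpG, Miat and Pantr2 are described lncRNAs, and Gm26654 had the fewest CpG.
Gm16551 (chr9:74848187-74848486, plus strand): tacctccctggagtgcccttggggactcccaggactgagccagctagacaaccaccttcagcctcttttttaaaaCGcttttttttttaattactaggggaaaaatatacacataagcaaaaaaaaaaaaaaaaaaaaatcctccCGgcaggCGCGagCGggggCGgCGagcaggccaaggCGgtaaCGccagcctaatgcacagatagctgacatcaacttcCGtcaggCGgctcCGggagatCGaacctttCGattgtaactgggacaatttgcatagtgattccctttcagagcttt
Gm11608 (chr1:63273207-63273506, minus strand): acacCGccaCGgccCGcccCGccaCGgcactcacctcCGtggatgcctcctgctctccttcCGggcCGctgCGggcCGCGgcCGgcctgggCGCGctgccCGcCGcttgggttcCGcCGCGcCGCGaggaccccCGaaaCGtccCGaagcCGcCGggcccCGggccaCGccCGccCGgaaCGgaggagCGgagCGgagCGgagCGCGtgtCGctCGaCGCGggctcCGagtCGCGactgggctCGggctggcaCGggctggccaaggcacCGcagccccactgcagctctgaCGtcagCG
Miat (chr5:112228899-112229198, minus strand): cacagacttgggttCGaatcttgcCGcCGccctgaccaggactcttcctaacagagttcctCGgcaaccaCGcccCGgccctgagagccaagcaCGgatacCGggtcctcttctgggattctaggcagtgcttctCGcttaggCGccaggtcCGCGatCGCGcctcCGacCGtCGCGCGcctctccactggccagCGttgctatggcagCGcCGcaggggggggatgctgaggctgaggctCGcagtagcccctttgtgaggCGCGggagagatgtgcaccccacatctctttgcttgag
Pantr2 (chr1:42713405-42713704, minus strand): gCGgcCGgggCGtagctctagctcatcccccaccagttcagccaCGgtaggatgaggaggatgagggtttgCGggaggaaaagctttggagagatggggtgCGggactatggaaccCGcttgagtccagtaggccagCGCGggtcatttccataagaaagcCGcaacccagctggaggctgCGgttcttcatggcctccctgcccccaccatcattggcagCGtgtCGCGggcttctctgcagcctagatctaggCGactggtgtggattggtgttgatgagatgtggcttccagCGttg
Gm26654 (chr3:96399622-96399921, plus strand): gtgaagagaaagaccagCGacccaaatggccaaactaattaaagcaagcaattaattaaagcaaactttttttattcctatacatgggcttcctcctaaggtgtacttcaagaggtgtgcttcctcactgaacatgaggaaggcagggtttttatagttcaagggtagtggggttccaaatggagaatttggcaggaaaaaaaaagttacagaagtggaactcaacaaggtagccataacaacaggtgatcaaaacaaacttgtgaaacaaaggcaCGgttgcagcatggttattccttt
The Gm11608 promoter was 78.3% G and C, with an observed to expected CpG ratio of 1.05, and its peak held 60 reads. Miat had 25 CpG and a ratio of 0.807, Pantr2 16 and 0.605, and Gm16551 14 and 0.801. Gm26654 had 2 CpG and a ratio of 0.167, yet its peak of 2367 bp held 53 reads. A CpG-dense start was therefore not shared by all promoters under these peaks.

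Most of the 431 peaks were narrow and held few reads, with a small number of wider ones. The median was 13 reads (quartiles 10 and 26.5) and the median width 636 bp (quartiles 500 and 1295 bp). The shortest width in the list, 500 bp, was found in 192 peaks (44.5%, exact 95% interval 39.79 to 49.38), and 172 peaks held 10 or 11 reads. Reads followed width closely, with a median of 20.29 reads per kb and quartiles of 20 and 22.55. A peak with the lowest reads and width of the list, 10 reads in 500 bp, also has 20 reads per kb. Whether peak calling set this density was not tested. The 43 peaks with the most reads held 34.7% of the reads. The scatter of reads against width shows these wider peaks in 1 continuous band with the narrow ones.

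**Figure D1:**
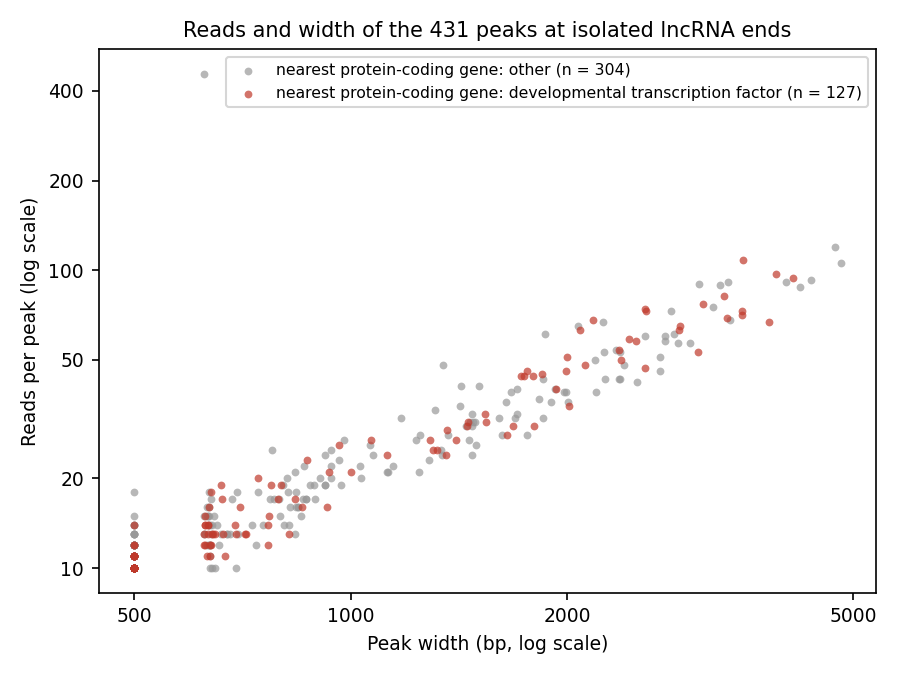
Reads per peak against peak width in bp, both on log scales, for each of the 431 peaks, coloured by whether the nearest protein-coding gene is on a list of developmental transcription factors. The band rises from 500 bp and 10 reads, and 1 peak with 456 reads in 625 bp stands far above it.

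The peak with the most reads stood apart from that band. It held 456 reads (exact 95% Poisson interval 415.1 to 499.8) in 625 bp within 2 kb of an end of Gm33838 (chr9:35305149-35305773), or 729.6 reads per kb. Among peaks wider than 500 bp, the next by density were at 2410017I17Rik, with 48 reads in 1344 bp (35.71 reads per kb), and at Gm51803 inside the cadherin gene Cdh23, with 61 reads in 1866 bp (32.69 reads per kb). Without the Gm33838 peak the median stayed at 13 reads, and whether its reads come from the mark was not tested.

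The other 9 of the 10 peaks with the most reads held 90 to 120 reads, and their neighbours were of several kinds. Mir9-3hg, a host gene of the microRNA miR-9, had a peak of 4712 bp with 120 reads (99.49 to 143.5) over its 3′ end. Gm16551 had a peak of 3506 bp with 108 reads (88.59 to 130.4), 11831 bp from Onecut1, a homeobox gene of neural and endodermal lineages. Gm52381 lies inside Nrxn2, which encodes a presynaptic adhesion protein, and its peak of 4801 bp with 106 reads was the widest of all. A peak of 97 reads lay at Gm13344 and Gm33940, 11969 bp from Ptf1a, a bHLH gene of pancreas and cerebellum. A peak of 94 reads lay at Gm35055 and Gm35223, 40101 bp from En2, a midbrain and hindbrain homeobox gene. A peak of 93 reads at Gm32876 and Gm51969 had no other peak within 5 kb and lay 152976 bp from the nearest protein-coding end. A peak of 90 reads at 2600014E21Rik and Gm13652 lay 259694 bp from the end of Mtx2, and the first peak of Gm31740 held 91 reads. The intervals of all these peaks from 90 to 120 reads overlap, so their order is not resolved. Gm33293 had peaks of 91 and 88 reads at its ends, with Tmem33 as the nearest protein-coding gene. Peaks covered 76.24% of Gm33293.

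The limits of the rule fell in the middle of these values. Just over the width limit were peaks of 5443 bp at Gm5563, near Tbx5, with 125 reads and of 5783 bp at Pantr2 with 110 reads, and 11 wider peaks met the other limits. At the 2 kb limit, a peak 1993 bp from Gm31317 was in, with 12 reads, and a peak 2002 bp from Gm12343 was out, with 12 reads. At the 5 kb limit, a peak of 23 reads 5008 bp from Kash5 and a peak of 13 reads 5010 bp from Dscaml1 were in. A peak 4993 bp from Pth1r with 15 reads was out.

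In reads per peak, the 431 peaks stood between peaks at protein-coding ends and other peaks far from them. At least 20 reads were found in 140 of 431 (32.5%, 28.08 to 37.13). The share was 258 of 515 (50.1%, 45.69 to 54.5) for peaks of at most 5 kb at lncRNA ends within 5 kb of a protein-coding end. It was 786 of 1733 (45.4%, 42.99 to 47.73) at protein-coding ends with no lncRNA end near. It was 540 of 2434 (22.2%, 20.55 to 23.89) for peaks over 5 kb from protein-coding ends with no lncRNA end within 2 kb, called distal peaks without lncRNA below. These intervals do not overlap between the 431 peaks and the other classes, and the medians were 13, 20, 17 and 12 reads in that order. Density differed little, with medians of 20.29, 21.85, 21.59 and 20.15 reads per kb, so peaks with more reads were wider. The lower quartile was 20 in each class, the density of 10 reads in 500 bp.

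**Figure D2:**
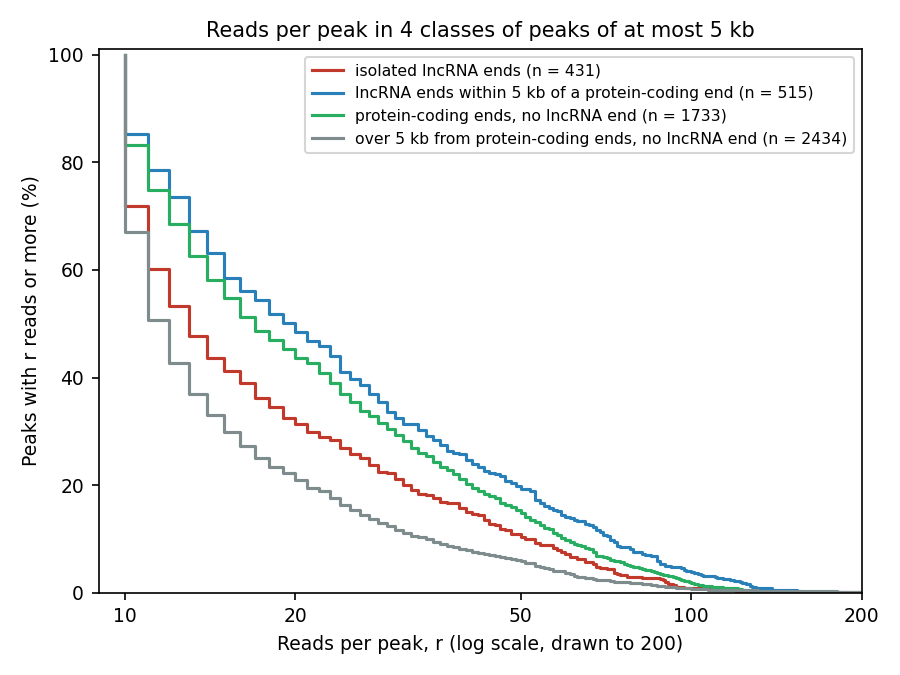
Share of peaks (percent) with at least the number of reads on the log-scaled x axis, for 4 classes of peaks of at most 5 kb. At 20 reads the curve of the 431 peaks stands at 32.5%, below 50.1% and 45.4% for the classes near protein-coding ends and above 22.2% for distal peaks without lncRNA.

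The 431 peaks lay at ends of 348 lncRNA genes. Over all 12727 lncRNA genes, 804 (6.32%) had a peak of any width at most 2 kb from an end, against 1879 of 21887 protein-coding genes (8.59%). Among the 8647 lncRNA genes with both ends more than 5 kb from protein-coding ends, called isolated below, 293 (3.39%) had a peak, and for 276 of them it was one of the 431. Most of the 348 have only a model name. Gm symbols made up 263 (75.6%), Riken clone symbols 55 (15.8%), and 8 were named as antisense or opposite strand of another gene. A single peak was found at 259 genes, 2 at 66 and 3 or more at 23. Both ends had a peak in 82 genes, and 86 of the 348 are at most 4 kb long, so that a peak can lie near both ends at once.

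The 23 genes with 3 or more peaks were covered by peaks over 1.242% to 83.41% of their length, with a median of 25.54%, and 6 of them over more than 50%. The 6 with the most reads in such peaks are given here. Gm26654 had peaks of 89, 65 and 53 reads, and peaks covered 83.41% of its 3081 bp. 4930488B22Rik, near the homeobox gene Hlx, had 69, 31 and 10 reads and was covered over 59.02%. Gm34978 had 61, 30 and 10 reads and was covered over 75.57%. Gm31740 had 91, 68 and 11 reads and lay in the same run of 8 peaks as the 3′ end of Mir9-3hg. Gm26644, 51121 bp from the kidney and ear gene Pax2, had 71, 27 and 17 reads, with 17.43% covered. Gm52046 had 41, 40 and 33 reads, in a run of 10 peaks. Reads differed within these genes, and the intervals of the highest and lowest peak did not overlap except in Gm52046.

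On a list written with results of these data known, described lncRNAs had a peak at an end more often than lncRNA genes as a whole. Of 74 described developmental lncRNAs, Hox lncRNAs and microRNA hosts listed, 49 were in the gene table, 34 of these had a peak of any width at an end, and 11 had one of the 431 peaks. Against them stand 6.32% of all lncRNA genes, and the way the list was written means that this excess is no independent support. Some of the 34, such as Six3os1, Pax6os1 and Gata6os, lie over an end of the gene they are named for. Of 346 listed developmental transcription factor genes, 275 (79.5%) had a peak at an end themselves. The peaks of such pairs were not told apart. For the 431 peaks alone, the shares were 22.4% of the 49 (11.77 to 36.62) and 348 of all 12727 lncRNA genes (2.73%). The 11 held 16 of the 431 peaks, and their reads ranged from 10 to 120.

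Among Hox lncRNAs, Hottip, transcribed from the distal end of the Hoxa cluster, had a peak of 3306 bp with 82 reads (65.22 to 101.8) beyond its 3′ end. Hotair, a Hoxc lncRNA known for its reported link to PRC2, had peaks of 35 and 20 reads, and peaks covered 44.07% of the gene. Evx1os, opposite to the homeobox gene Evx1, had 67 reads in a peak near its 3′ end, and 99.61% of the gene was covered. Halr1 had peaks of 19, 11 and 10 reads, and 4.657% of the gene was covered. Hoxb3os had 1 peak of 12 reads. The Hottip, Hotair and Evx1os peaks lay in runs that also held a peak over 5 kb, while the Halr1 peaks did not.

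Outside the Hox clusters, Vax2os, opposite to the eye gene Vax2, had peaks of 60 and 10 reads, and 92.78% of the gene was covered. Pantr2, beside the neural POU gene Pou3f3, had 54 reads (40.57 to 70.46) over its 5′ end. Miat, a lncRNA of neural and retinal cells, had 39 reads (27.73 to 53.31) over its 5′ end, with no other peak within 5 kb and 9.573% of the gene covered. Lhx1os had 1 peak of 10 reads. Chosen after their values were seen, Tunar, a lncRNA of pluripotent and neural cells, had 31 reads over its 5′ end, and Paupar, which neighbours the eye and brain gene Pax6, had 28 reads. Irx3os, Sox6os and Dmrta2os, named for factor genes, had 13, 19 and 16 reads.

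**Figure D3:**
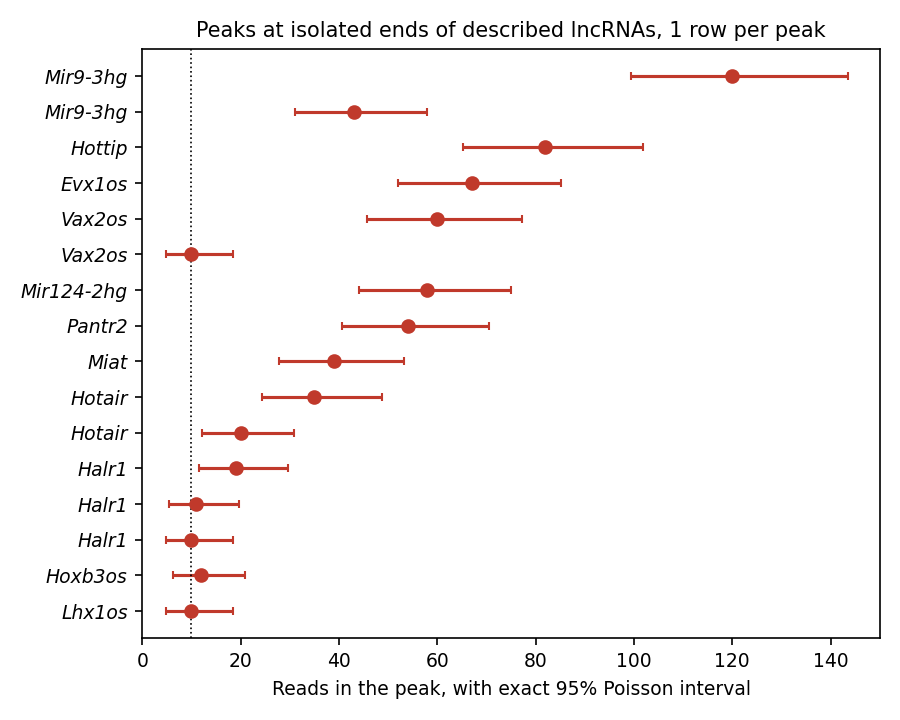
Reads in each of the 16 peaks at the 11 described lncRNAs, with exact 95% Poisson intervals as bars and a dotted line at 10 reads, the lowest in the list. Mir9-3hg, Hottip, Evx1os, Vax2os, Mir124-2hg and Pantr2 each have a peak whose interval starts above 40 reads, while the intervals of the Hoxb3os and Lhx1os peaks hold the line at 10 reads.

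Imprinted, housekeeping and nuclear lncRNAs had 1 peak among them at their ends. Of 23 imprinted lncRNAs listed, 9 were found, and none of these had a peak of any width there. Among them were H19, Meg3, Kcnq1ot1 and Airn. Of 31 housekeeping and nuclear lncRNAs found, of 35 listed, Snhg11 alone had a peak, with 13 reads over its 5′ end. Kcnq1ot1 stands on both lists. Malat1, Neat1, Norad and Tug1 had none. With 6.32% of all lncRNA genes as the background, counts of 0 of 9 and 1 of 31 are near it.

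MicroRNA genes lay inside 10 of the 348 lncRNA genes, 17 microRNA genes in all, and these genes were looked for after other values had been seen. The share of hosts was 2.87% (1.386 to 5.221) of the 348 and 0.864% of all lncRNA genes. A microRNA gene lay within 2 kb of 0.928% of the 431 peaks and of 0.931% of all peaks in the list. All 3 genes of miR-9, a microRNA of neural progenitors, were among them, each inside another host. Their mature sequence and that of the sensory cluster in Mirc35hg are given from RefSeq (GRCm38.p6) with the seed in capitals, since the host genes carry the peaks.
mmu-miR-9-5p: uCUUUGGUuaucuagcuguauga
mmu-miR-96-5p: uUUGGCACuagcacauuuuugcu
mmu-miR-182-5p: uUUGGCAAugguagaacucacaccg
mmu-miR-183-5p: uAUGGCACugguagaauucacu
Mir9-1 lies in Gm3764, whose 5′ end had a peak of 41 reads, and the microRNA gene itself lay under a peak of 195 reads. Mir9-2 lies in C130071C03Rik, whose 5′ end had a peak of 33 reads shared with Gm52046, and the nearest peak to Mir9-2 was 4660 bp away with 23 reads. Mir9-3 lies in Mir9-3hg, which had peaks of 43 reads at its 5′ end and 120 at its 3′ end, and lay under a peak of 249 reads. Mirc35hg, host of miR-96, miR-182 and miR-183, had 32 reads near its 5′ end, and Mir96 and Mir183 lay under a peak of 24 reads, with Mir182 297 bp from a peak of 11 reads. Mir124-2hg, host of the neuronal microRNA miR-124, had 58 reads near an end in a peak shared with Gm30340, and Mir124a-2 lay under a peak of 48 reads.

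Developmental transcription factor genes were the nearest protein-coding gene for 127 of the 431 peaks (29.5%, 25.2 to 34.02). They make up 346 of 21887 protein-coding genes (1.58%). The list of factors was written with earlier results of these data known, and 275 of the 346 (79.5%) had a peak at an end. The excess over 1.58% is therefore not independent of the mark. The peaks had 296 different nearest protein-coding genes, 73 of them factors. Msx1, a homeobox gene of neural crest and limb, neighboured 6 peaks with 143 reads, 7363 to 75132 bp away at Gm40288 and Gm20052. Foxb1, a forkhead gene of the hypothalamus, neighboured 5 peaks with 155 reads, among them peaks of 65, 11 and 10 reads at Gm31530. Tbx3, a T-box gene of limb and heart, neighboured 4 peaks with 154 reads, of which Gm16064 had 73 and 44. Lhx2, a LIM homeobox gene of forebrain and eye, neighboured 4 peaks with 153 reads, of which Gm27197 had 68 and 24. The only peak on the X chromosome, 10 reads at Gm38438, lay 5084 bp from Sox3. Genes of developmental signals were nearest to 2 peaks (0.464%) and genes of synapses and channels to 11 (2.55%). These lists hold 0.42% and 1.24% of protein-coding genes, and they were nearest to 1.03% and 3.53% of distal peaks without lncRNA. The lncRNA genes beside Msx1, Foxb1, Tbx3 and Lhx2 were named after their values were seen.

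Peaks next to a factor gene had another peak nearby more often than the other peaks, while their reads overlapped. The median was 15 reads (quartiles 11 and 32) for these 127 and 12 (10 and 23) for the other 304. At least 20 reads were found in 40.2% (31.56 to 49.22) and 29.3% (24.22 to 34.74), intervals that overlap. Another peak lay within 5 kb for 106 of the 127 (83.5%, 75.84 to 89.46) and for 148 of the 304 (48.7%, 42.94 to 54.46). The factor gene itself had a peak at an end for 123 of the 127 (96.9%), against 114 of the 304 (37.5%) for other neighbours. Over all protein-coding genes 8.59% had such a peak, and over the listed factors 275 of 346 (79.5%). The 127 peaks also lay closer to their nearest protein-coding end, at a median of 11810 bp against 32930 bp for the 304. Neither share was compared at equal distance.

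An isolated lncRNA gene had a peak more often when its nearest protein-coding gene was a factor, and most often where the factor was near. With all distances together, 67 of 387 such lncRNA genes had a peak (17.3%, 13.68 to 21.46), against 226 of 8260 beside other genes (2.74%, 2.395 to 3.111). At 5 to 20 kb the counts were 40 of 78 (51.3%, 39.69 to 62.77) and 72 of 2391 (3.01%). At 20 to 50 kb they were 9 of 75 (95% interval 5.637% to 21.56%) and 72 of 2092 (3.44%), and over 100 kb 9 of 162 (5.56%, 2.572 to 10.28) and 45 of 2351 (1.91%). Neighbouring lncRNA genes can share a factor and a peak. The factor list was written with earlier results of these data known, so these shares are no independent support.

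Factor genes were also often nearest to distal peaks without lncRNA. Of these 2434 peaks, 574 (23.6%, 21.91 to 25.32) had a factor as nearest protein-coding gene, an interval that meets that of the 431 peaks. Within 20 kb of the nearest protein-coding end the shares were 79 of 186 (42.5%, 35.27 to 49.92) and 322 of 1098 (29.3%, 26.65 to 32.12). The order was reversed at 20 to 50 kb, with 17 of 111 (15.3%, 9.182 to 23.39) and 128 of 637 (20.1%, 17.05 to 23.42). At 50 to 100 kb they were 21 of 70 (95% interval 19.62% to 42.13%) and 51 of 315 (16.2%, 12.3 to 20.73). Over 100 kb the order was again reversed, with 10 of 64 (15.6%, 7.756 to 26.86) and 73 of 384 (95% interval 15.21% to 23.3%). Beyond 20 kb the intervals overlapped in each class. Among peaks with no other peak within 5 kb the shares were 21 of 177 (11.9%, 7.496 to 17.56) and 171 of 1311 (95% interval 11.27% to 14.99%). The 431 peaks more often had another peak within 5 kb (254, 58.9%, against 1123, 46.1%) and less often lay inside a protein-coding gene (111, 25.8%, against 935, 38.4%), with intervals that do not overlap. These differences were not tested, since peaks of 1 library are not replicates. The rule ties the 431 peaks to lncRNA ends, so their share inside protein-coding genes depends on where those ends lie. How many isolated lncRNA ends lie inside such genes is not given here.

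**Figure D4:**
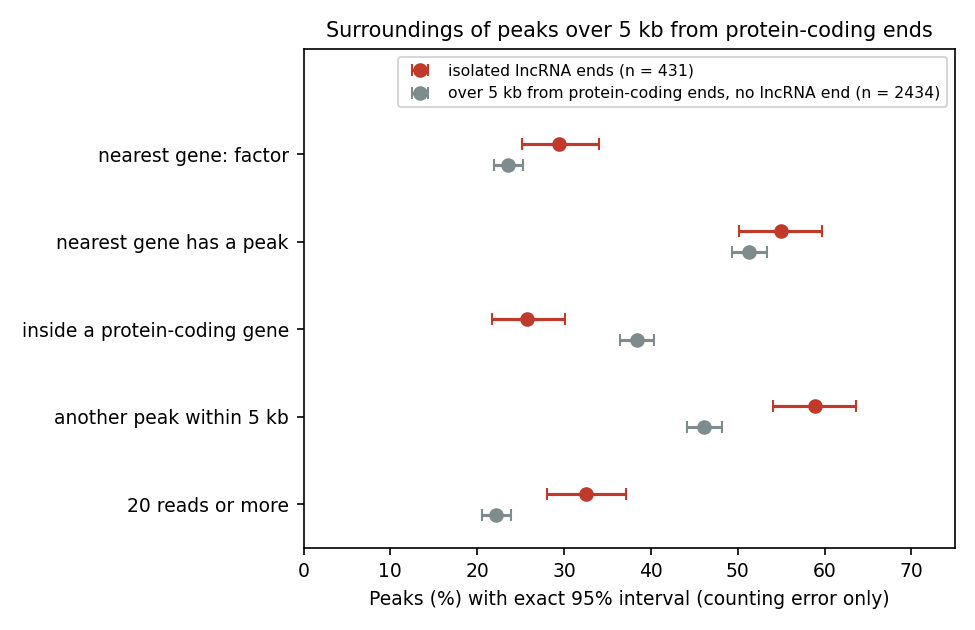
Share of peaks (percent, with exact 95% intervals as bars) with each of 5 properties, for the 431 peaks and for the 2434 distal peaks without lncRNA. The largest gaps are for lying inside a protein-coding gene (25.8% and 38.4%) and for another peak within 5 kb (58.9% and 46.1%), and the bars for a peak at the nearest gene overlap.

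The peaks lay near starts and near ends of lncRNA genes in similar numbers. Strand was known from the promoter table for a lncRNA end at 327 of the 431 peaks. A 5′ end lay within 2 kb of 196 of these (59.9%, 54.4 to 65.29) and a 3′ end of 179 (54.7%, 49.17 to 60.22), with 48 near both. The 148 near a 5′ end alone had a median of 15 reads, against 12 for the 131 near a 3′ end alone, and 53 (35.8%, 28.11 to 44.1) against 31 (23.7%, 16.68 to 31.88) held at least 20 reads. Where a 5′ end was near, the peak centre lay upstream of it in 86 of 206 pairs (41.7%) and within 1 kb of it in 105 (51.0%). An end of a lncRNA gene lay inside the peak itself in 111 of 431 (25.8%), and 75 (17.4%) overlapped the 300 bases of a lncRNA promoter.

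Promoters of lncRNA genes under the peaks held more CpG than those of isolated lncRNA genes under no peak and less than marked protein-coding promoters. RefSeq promoters were found for 266 of the 348 genes, and 77 of these genes had a promoter under one of the 431 peaks. Over the 94 promoters concerned, the median was 9 CpG (quartiles 4 and 15.75). It was 3 (2 and 6) for 7645 promoters of isolated lncRNA genes under no peak, and 19 (12 and 27) for 940 protein-coding promoters under a peak. For all 366 lncRNA promoters under a peak of any width, the 94 included, the median was 13 (7 and 22). Of these 366, 62.3% held at least 11 CpG. At least 11 CpG were found in 40 of the 94 (42.6%, 32.41 to 53.18), against 476 of 7645 (6.23%). Some of the 94 are overlapping promoters of the same gene, such as those of Gm4718 and Gm13652. They are not independent, and the interval is too narrow. Over all 11588 lncRNA promoters, those near protein-coding ends included, it was 16.9%, and the 94 also include genes with an end within 5 kb of a protein-coding end.

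Turned around, the share of isolated lncRNA promoters under a peak was higher where CpG was denser. Taking the promoter nearest each gene's annotated 5′ end, it was 1 of 1428 with 0 or 1 CpG (0.07%), 11 of 826 with 7 to 10 (1.33%), 14 of 278 with 11 to 15 (5.04%) and 12 of 96 with 21 or more (12.5%, 6.629 to 20.82). For protein-coding genes the share was 5.4% at 7 to 10 CpG, 8.29% at 11 to 15 and 5.83% at 21 or more (5.244 to 6.459). Both the neighbour and the CpG number went with the share. Beside a factor gene, 11 of 39 promoters with at least 11 CpG (28.2%) and 12 of 246 with fewer (4.88%, 2.546 to 8.366) were under a peak. Beside other genes it was 22 of 412 (5.34%, 3.376 to 7.973) and 34 of 5752 (0.591%, 0.4097 to 0.825).

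**Figure D5:**
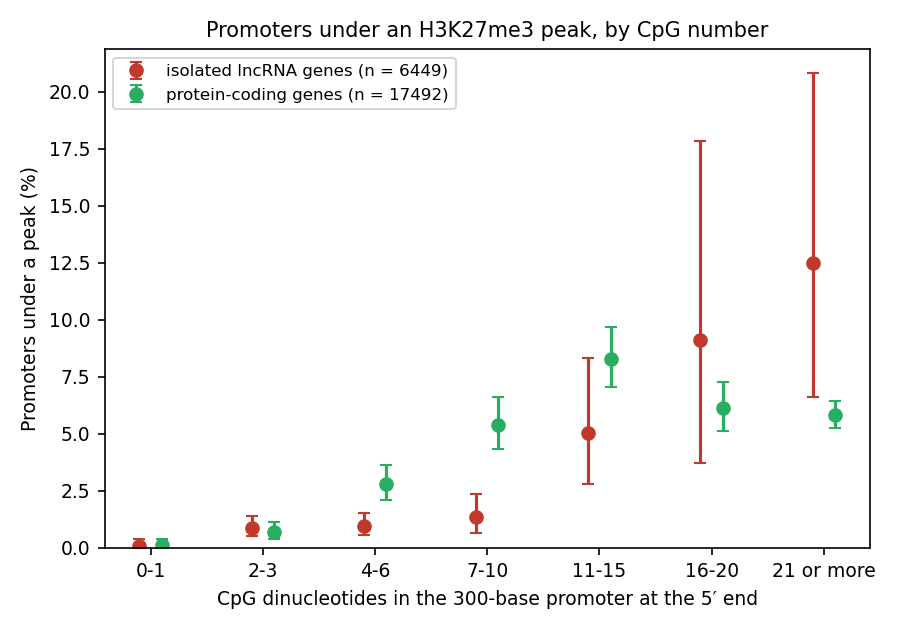
Share of promoters (percent) under an H3K27me3 peak by the number of CpG in 300 bases, for isolated lncRNA genes and protein-coding genes, with exact 95% intervals as bars. The lncRNA points go from 0.07% to 12.5%, while the protein-coding points are highest, at 8.29%, with 11 to 15 CpG.

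Short motifs were counted in the same promoters on both strands. CGCG, which contains CG, was found in 31 of the 94 (33.0%), against 17.5% of all lncRNA promoters and 38.0% of all promoters. GGGCGG, the core of the Sp1 site, was found in 32 of the 94, against 16.3% and 35.7%. GAGAG was found in 66.0%, against 62.1% and 62.0%, CCAAT in 30.9%, against 36.0% and 37.4%, and TATAAA in 7.45%, against 15.5% and 13.6%. The CG-bearing motifs were thus at about the share of all promoters, and above that of lncRNA promoters. All promoters include protein-coding ones, of which 49.2% held CGCG and 46.2% GGGCGG. In isolated lncRNA promoters under no peak the shares were lower, at 8.07% for CGCG and 8.62% for GGGCGG.

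Chromosome 5 held 51 of the 431 peaks, which were 10.1% of its 505 peaks, and chromosome 13 held 35 of its 295 (11.9%). Chromosome 2 held 44 of its 580 (7.59%), near the 7.16% over the list, chromosome 16 held 4 of its 102 (3.92%) and the X chromosome 1 of its 31. Of isolated lncRNA genes, 17 of 216 on chromosome 19 (7.87%) and 2 of 299 on chromosome 16 (0.669%) had a peak, and none of 202 on the X chromosome did, which allows a share of up to 1.49%. Transfer RNA genes lay within 2 kb of 10 of the 431 peaks (2.32%), against 0.864% of all peaks in the list. Pseudogenes lay within 2 kb of 1.62%, against 1.33%, and small nucleolar RNA genes of 0.232%, against 0.0332%. Small nuclear and ribosomal RNA genes lay near none of the 431. These shares were not tested, and peaks near each other are not independent.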

How the data were processed

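H3K27me3 was measured by chromatin immunoprecipitation and sequencing in mouse sciatic nerve. The aligner Bowtie and build mm10 are named per the submitters' processing notes. Which peak caller and threshold were used, and how the input entered, is not stated there or in the labels. The deposited list gives each peak a start, an end and a score, and the authors' scaling of the score is not stated. The scores' step of 2.5735 was found from the values and turned them into whole reads. If the scaling was to 10000000 reads, which is an assumption, the library held 3886000 reads. Starts were raised by 1 bp to be 1-based.

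Genes came from a RefSeq table of GRCm38.p6, with 21887 protein-coding and 12727 lncRNA genes on the chromosomes of the list. Distances run from the nearest peak edge to the annotated gene ends. Strand came from the RefSeq promoter table, which holds 9533 of the lncRNA genes. Peaks within 5 kb of each other form a run. Intervals are exact at 95% (Clopper-Pearson for shares, Poisson for reads, scipy 1.17.1), and a count of 0 was taken to allow 3 counts. The 2 kb lncRNA limit of the rule was tested on planted peaks. These were narrow and lay far from protein-coding ends, so the protein-coding and width limits were not tested this way.

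The regions, the lists of factors and described lncRNAs and the tests were chosen with earlier results of these data known. Jpx and Platr4, which are not imprinted and had no peak, were taken off the imprinted list after values were seen. The rule for named genes took the 10 peaks with the most reads, the 5 widest, the 3 densest, those at listed lncRNAs, up to 6 genes with 3 or more peaks, the 5 closest to a factor, the nearest to each limit and those on the X chromosome. Some values that concern single genes are not reported here. In all, 13 other settings and 3 added after seeing the data were run.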

Additional observations from a re-analysis of the deposited data

How the results depend on the processing

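The counts, median reads and shares were recomputed under 13 other settings and 3 more chosen after seeing the data, and 77 of 112 values stayed within their interval or within 1.5 times. Without the dense Gm33838 peak none moved. With a window of 5 kb there were 698 peaks and 533 lncRNA genes. Over 50 kb from protein-coding ends there were 134 peaks and 114 genes, with 67.6% at a 5′ end, 19.4% inside a protein-coding gene, 49.3% with a marked nearest gene and 23.1% next to a factor. Over 10 kb the last 2 were 49.2% and 23.1%. Over 5 kb from gene bodies, 35.0% were next to a factor and by construction 0% inside a gene. Peaks wider than 500 bp numbered 239 at 202 genes, with a median of 24 reads, 66.1% at a 5′ end, 59.8% with a marked nearest gene and 36.8% next to a factor. Peaks at or above the list's median score numbered 206 at 181 genes, with 27 reads, 67.7% at a 5′ end and 34.5% next to a factor. Peaks of at least 20 reads numbered 140 at 130 genes, with 39 reads, 69.6% and 36.4%. Among those added, without peaks in a run with one over 5 kb, 49.1% had a marked nearest gene and 20.9% a factor. Peaks with no other within 5 kb numbered 177 at 181 genes, with 31.6% inside a gene, 39.5% with a marked nearest gene and 11.9% next to a factor. The share next to a factor thus ran from 11.9% to 36.8%, and the cause was not tested. No paired analysis was possible because there was a single ChIP library and no second group of ChIP libraries. Peaks of 10 reads carry a counting error of 31.62%, so calls at the lowest reads are the least certain.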
